A study of Mus musculus with 2 samples.

Results

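The genes described here are 9 astrocyte transport and coupling genes, chosen by symbol, out of 32285 genes counted in nuclei of the contused mouse spinal cord. They are the water channel gene Aqp4, the glutamate transporter genes Slc1a2 and Slc1a3, the glutamine synthetase gene Glul, the amino acid carrier gene Slc7a10, the connexin genes Gja1 and Gjb6, the bicarbonate cotransporter gene Slc4a4 and the folate enzyme gene Aldh1l1. Each symbol matched 1 gene. Astrocytes clear glutamate from synapses, turn it into glutamine, pass ions and metabolites between themselves through gap junctions and move water across endfeet that wrap blood vessels. After injury of the cord, astrocytes near the lesion raise the intermediate filament gene Gfap and become reactive, while others keep the shape of resting protoplasmic or fibrous astrocytes.

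C57BL/6 wild-type mice aged 6 to 8 weeks received a contusion at T10 from a 5-g rod, 1 mm across, that fell from 6 cm, and antibiotics in both groups. The AEVs group had tail-vein injections on each of 5 days of vesicles holding 100 µg of protein in 100 µL of PBS, and the PBS group had 100 µL of PBS on the same days. The series title speaks of athlete-derived extracellular vesicles; no label used here gives the fluid or tissue they came from. Cords were frozen at day 7 and nuclei were isolated and sequenced with a droplet kit that reads the 3′ ends of transcripts. Each group is 1 library that pools 3 mice, so the spread between mice is unknown, no test between the groups exists, and every interval given is at 95% and covers counting error only. A difference between the libraries and a difference between the treatments cannot be told apart.

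The AEVs library held 17055 barcodes and the PBS library 15325, of which 15549 and 14023 nuclei were kept, with medians of 2400 UMIs (unique molecules) in AEVs and 2600 in PBS. The libraries shared 146 barcodes among the kept nuclei. Clusters were named from marker genes that exclude the 9 genes. Astrocyte-like nuclei numbered 1135 in AEVs (7.30%) and 936 in PBS (6.67%). They fell into 7 sub-clusters, and those with a pooled Gfap level of at least 2140 CPM (UMIs of a gene per 1000000 UMIs of the nuclei summed) formed the Gfap-high class, with 515 nuclei in AEVs and 386 in PBS, against 620 and 550 in the Gfap-low class. Gfap-high nuclei made up 45.4% (42.4 to 48.3) of the astrocyte-like nuclei in AEVs and 41.2% (38.1 to 44.5) in PBS, with intervals that overlap. The direction depends on the split: with each nucleus split at the median by its own Gfap, the shares were 47.5% in AEVs and 53.1% in PBS. The median depth of Gfap-high nuclei was 2659 UMIs in AEVs and 2382 in PBS, and that of Gfap-low nuclei 2933 in AEVs and 3666.5 in PBS. Each gene's level is its UMIs summed over the nuclei of a class, as CPM of that class.

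The astrocyte label was checked with the 9 genes themselves, which took no part in the naming. Shares of nuclei with a UMI are given after nuclei with at least 1000 UMIs were thinned to that number and shallower ones left out, which removed 129 of 515 Gfap-high nuclei in AEVs and 115 of 386 in PBS, and 35 of 620 Gfap-low nuclei in AEVs and 21 of 550 in PBS. Among the thinned nuclei, 92.0% of 386 Gfap-high nuclei in AEVs and 87.1% of 271 in PBS held a UMI of at least 3 of the 9 genes, as did 556 of 585 Gfap-low nuclei in AEVs and 496 of 529 in PBS. Among nuclei of a lipid-laden myeloid type, led by Gpnmb, which should lack most of these genes, the share was 0.184% in AEVs and 0.531% in PBS. Among neuron-like nuclei it was 0.184% in AEVs and 0.662% in PBS.

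The 250 bases before the RefSeq transcription start (GRCm38.p6) are shown for 5 of the genes, 5′ to 3′ on the gene's own strand: the 3 genes whose interval lay above 0 in both classes (Slc1a3, Glul, Gjb6), Slc7a10, which was lower in AEVs by more than 1.5-fold in both, and Gja1, the connexin gene to set beside Gjb6. Aqp4 and Slc1a2, whose intervals lay below 0 in both classes, are not shown. Capitals mark matches, on either strand, to a CCAAT box (CCAAT), a GC box (GGGCGG) or the AP-1 motif (TGANTCA).
Slc1a3 (chr15:8710808-8711057, - strand): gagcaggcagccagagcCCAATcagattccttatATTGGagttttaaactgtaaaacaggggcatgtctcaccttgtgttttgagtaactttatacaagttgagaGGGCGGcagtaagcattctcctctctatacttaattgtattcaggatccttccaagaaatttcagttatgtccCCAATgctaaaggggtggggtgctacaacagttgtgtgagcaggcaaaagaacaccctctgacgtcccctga
Glul (chr1:153899679-153899928, + strand): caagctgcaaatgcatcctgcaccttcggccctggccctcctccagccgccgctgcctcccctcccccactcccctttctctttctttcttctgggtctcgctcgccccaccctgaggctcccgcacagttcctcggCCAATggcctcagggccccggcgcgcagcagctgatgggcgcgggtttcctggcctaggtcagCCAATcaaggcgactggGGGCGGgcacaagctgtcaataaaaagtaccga
Slc7a10 (chr7:35186135-35186384, + strand): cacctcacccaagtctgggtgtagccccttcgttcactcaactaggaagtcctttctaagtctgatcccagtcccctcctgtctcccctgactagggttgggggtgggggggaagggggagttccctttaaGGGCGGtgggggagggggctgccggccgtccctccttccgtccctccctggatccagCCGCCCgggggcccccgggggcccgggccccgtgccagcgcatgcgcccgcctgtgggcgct
Gja1 (chr10:56377050-56377299, + strand): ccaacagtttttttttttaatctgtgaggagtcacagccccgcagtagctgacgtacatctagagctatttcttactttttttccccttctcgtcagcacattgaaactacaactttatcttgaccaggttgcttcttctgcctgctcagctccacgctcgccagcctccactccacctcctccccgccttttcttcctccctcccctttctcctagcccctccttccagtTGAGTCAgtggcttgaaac
Gjb6 (chr14:57133612-57133861, - strand): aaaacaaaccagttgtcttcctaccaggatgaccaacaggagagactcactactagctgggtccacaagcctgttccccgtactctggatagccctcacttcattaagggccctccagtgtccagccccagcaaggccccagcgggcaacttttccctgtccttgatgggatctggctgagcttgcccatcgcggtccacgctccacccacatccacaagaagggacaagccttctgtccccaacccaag
CCAAT boxes stand in 33.8% of 32851 promoter windows of the same length, GC boxes in 32.7% and AP-1 motifs in 6.75%. Slc1a3 held 3 CCAAT boxes, at -233, -216 and -72 from the start, and a GC box at -145. Glul held CCAAT boxes at -113 and -50 and a GC box at -33, whereas Slc7a10 held GC boxes at -119 and -62. Gja1 held an AP-1 motif at -19 and Gjb6 held none of these motifs. The C/EBP motif searched (TTGCNNAA, in 9.56% of windows) and the glucocorticoid response element searched (in 0.387%) had no match in these 5 windows. The GC boxes and CCAAT boxes do not overlap each other in these windows. A match is a description of the letters only.

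All 9 genes are protein-coding in the mm10 build with the GENCODE M21 annotation. Aqp4 lies at chr18:15389496-15410982 on the minus strand, Slc1a2 at chr2:102658659-102790784 on the plus strand, Slc1a3 at chr15:8634124-8710764 on the minus strand and Glul at chr1:153899944-153909723 on the plus strand. Slc7a10 lies at chr7:35186385-35201114 on the plus strand, Gja1 at chr10:56377330-56402513 on the plus strand, Gjb6 at chr14:57123303-57133611 on the minus strand, Slc4a4 at chr5:88886818-89239653 on the plus strand and Aldh1l1 at chr6:90486427-90600203 on the plus strand. Glul overlaps Teddm2 and Slc7a10 overlaps Lrp3 on the opposite strand, Slc1a2 overlaps the antisense gene Gm13872, and Aldh1l1 overlaps Gm45901 on its own strand and Gm15756 on the other. Whether counting used strand and introns is not given in the sources used here, so reads of these partners may not be fully told apart.

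In Gfap-high nuclei, Gjb6 was higher and Slc7a10 lower in AEVs by more than 1.5-fold, the fold used to call a gene. Against 1 of 9 genes higher and 1 of 9 lower, 9.99% of the 12071 genes with at least 20 UMIs were higher and 9.21% lower by the same fold. All 9 genes had at least 100 UMIs, and of the 6437 genes with that many, 4.72% were higher and 5.27% lower. With only 9 genes, a count of 1 does not set them apart from either share. In Gfap-low nuclei 0 of 9 were higher and 2 of 9, Aqp4 and Slc7a10, lower, against 12.1% higher and 5.88% lower of 12361 genes. Of the 7443 genes with at least 100 UMIs there, 6.23% were higher and 3.28% lower. Over all astrocyte-like nuclei the same counts were 0 and 2 of 9, against 10.3% and 5.84% of 13761 genes, and 5.49% and 3.31% of the 9678 genes with at least 100 UMIs. The median log2 ratio of AEVs over PBS of the 9 genes was -0.03 in Gfap-high and -0.20 in Gfap-low nuclei, and that of all genes counted -0.01 and 0.08. Slc1a3, Glul, Gjb6 and Aldh1l1 had ratios above 0 in both classes, and the other 5 genes had ratios below 0 in both. The intervals of Aldh1l1 in Gfap-low nuclei and of Gja1 and Slc4a4 in Gfap-high nuclei hold 0, so these directions are not set beyond counting error.

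Aqp4 encodes the water channel of astrocyte endfeet. It had 1935 CPM (1874 to 1998) in AEVs and 2889 CPM (2805 to 2975) in PBS in Gfap-high nuclei, from 3824 and 4465 UMIs. The log2 ratio there was -0.58 (-0.64 to -0.52), or 1.49-fold lower in AEVs and so just within the 1.5-fold limit. In Gfap-low nuclei Aqp4 had 1055 CPM (1013 to 1099) in AEVs and 1834 CPM (1780 to 1889) in PBS, a log2 ratio of -0.80 (-0.87 to -0.72). The counting intervals of the libraries did not overlap in either class. Without a limit on mitochondrial UMIs the ratio was -0.74 in Gfap-high and -0.57 in Gfap-low nuclei, so the class that passes 1.5-fold changes with that filter. After thinning, 80.6% of Gfap-high nuclei in AEVs and 87.1% in PBS had an Aqp4 UMI (87.2% and 93.3% before it), and 55.6% of Gfap-low nuclei in AEVs and 73.9% in PBS (82.6% and 91.8% before it). In Gpnmb-led nuclei, whose median depth was 1848 UMIs in AEVs and 1994 in PBS, the thinned shares were 1.65% in AEVs and 2.92% in PBS.

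Slc1a2 encodes GLT-1, the main glutamate transporter of mature astrocytes, and Slc1a3 encodes GLAST, the transporter also made by radial and immature glia. The 2 genes differed in direction. Slc1a2 had 2993 CPM (2918 to 3071) in AEVs and 3469 CPM (3376 to 3563) in PBS in Gfap-high nuclei, and 3511 CPM (3434 to 3590) in AEVs and 4597 CPM (4511 to 4684) in PBS in Gfap-low nuclei. The log2 ratios were -0.21 (-0.27 to -0.16) and -0.39 (-0.43 to -0.35), both within 1.5-fold. Slc1a3 had 641.7 CPM (606.9 to 678.0) in AEVs and 440.0 CPM (407.5 to 474.3) in PBS in Gfap-high nuclei, and 591.4 CPM (559.9 to 624.1) in AEVs and 445.5 CPM (419.1 to 473.2) in PBS in Gfap-low nuclei. Its log2 ratios were 0.54 (0.41 to 0.68) and 0.41 (0.29 to 0.53). Within a library, each Slc1a2 UMI came with 0.214 Slc1a3 UMIs in AEVs and 0.127 in PBS in Gfap-high nuclei, and with 0.168 in AEVs and 0.0969 in PBS in Gfap-low nuclei, a ratio that does not depend on the class total. Thinned nuclei with a Slc1a3 UMI made up 40.9% in AEVs and 31.0% in PBS of the Gfap-high class (61.6% and 54.4% unthinned), against 6.62% in AEVs and 5.84% in PBS of Gpnmb-led nuclei.

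Glul encodes the enzyme that turns the captured glutamate into glutamine. It had 741.9 CPM (704.4 to 780.9) in AEVs and 536.4 CPM (500.5 to 574.2) in PBS in Gfap-high nuclei, and 980.0 CPM (939.4 to 1022) in AEVs and 777.7 CPM (742.6 to 814.0) in PBS in Gfap-low nuclei. The log2 ratios were 0.47 (0.34 to 0.59) and 0.33 (0.24 to 0.42). Glul was thus higher in AEVs where Slc1a2 was lower, and each Slc1a2 UMI came with 0.248 Glul UMIs in AEVs and 0.155 in PBS in Gfap-high nuclei. In Gfap-low nuclei the same ratio was 0.279 in AEVs and 0.169 in PBS. Thinned nuclei with a Glul UMI made up 45.9% in AEVs and 35.1% in PBS of the Gfap-high class and 59.7% in AEVs and 48.2% in PBS of the Gfap-low class, against 9.01% in AEVs and 11.4% in PBS of Gpnmb-led nuclei.

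Slc7a10 encodes Asc-1, a carrier of D-serine, glycine and other small neutral amino acids. It had 146.8 CPM (130.4 to 164.7) in AEVs and 268.5 CPM (243.3 to 295.6) in PBS in Gfap-high nuclei, from 290 and 415 UMIs. In Gfap-low nuclei it had 496.2 CPM (467.5 to 526.3) in AEVs and 775.6 CPM (740.5 to 811.8) in PBS, from 1111 and 1840 UMIs. The log2 ratios were -0.87 (-1.09 to -0.65) and -0.64 (-0.75 to -0.54), and the gene was lower in AEVs by 1.83-fold in Gfap-high and 1.56-fold in Gfap-low nuclei. With called doublets kept, the Gfap-high ratio was -0.32 and no longer past 1.5-fold, and without a mitochondrial limit it was -0.42. The Gfap-low ratio was within 1.5-fold without a mitochondrial limit (-0.43), with at least 1000 UMIs and under 1% mitochondrial UMIs (-0.50) and after thinning (-0.51). The thinned share of Gfap-low nuclei with a Slc7a10 UMI was 44.1% in AEVs and 54.6% in PBS (69.5% and 82.7% unthinned). In Gfap-high nuclei it was 11.9% in AEVs and 15.9% in PBS (22.5% and 26.4% unthinned), and in Gpnmb-led nuclei 0.368% in AEVs and 0.398% in PBS.

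Gja1 and Gjb6 encode connexin 43 and connexin 30, which form the gap junctions between astrocytes. Gjb6 had 317.8 CPM (293.4 to 343.7) in AEVs and 162.4 CPM (142.9 to 183.8) in PBS in Gfap-high nuclei, from 628 and 251 UMIs. In Gfap-low nuclei it had 539.6 CPM (509.6 to 570.9) in AEVs and 387.8 CPM (363.1 to 413.7) in PBS. The log2 ratios were 0.97 (0.76 to 1.19) and 0.48 (0.35 to 0.60). Over the 386 AEVs and 271 PBS Gfap-high nuclei with at least 1000 UMIs, thinned to that number, the ratio was 0.54 and within 1.5-fold; that setting both thins nuclei and leaves shallow ones out. Gja1 had 727.2 CPM (690.1 to 765.8) in AEVs and 742.8 CPM (700.4 to 787.0) in PBS in Gfap-high nuclei, a log2 ratio of -0.03 whose interval, -0.14 to 0.08, holds 0. In Gfap-low nuclei Gja1 had 787.0 CPM in AEVs and 931.9 CPM in PBS, a log2 ratio of -0.24 (-0.33 to -0.15). The connexin pair therefore had another make-up in the AEVs library: each Gja1 UMI came with 0.437 Gjb6 UMIs (0.397 to 0.480) in AEVs and 0.219 (0.190 to 0.251) in PBS in Gfap-high nuclei, and with 0.686 in AEVs and 0.416 in PBS in Gfap-low nuclei. After thinning, 24.4% of Gfap-high nuclei in AEVs and 15.9% in PBS had a Gjb6 UMI (44.1% and 29.5% unthinned), against 0.551% in AEVs and 0.531% in PBS of Gpnmb-led nuclei.

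Slc4a4 encodes the sodium bicarbonate cotransporter NBCe1, through which astrocytes buffer pH, and Aldh1l1 the folate dehydrogenase widely used as an astrocyte marker. Slc4a4 had 2876 CPM (2802 to 2952) in AEVs and 2970 CPM (2884 to 3057) in PBS in Gfap-high nuclei, a log2 ratio of -0.05 (-0.10 to 0.01). In Gfap-low nuclei it had 3485 CPM in AEVs and 4009 CPM in PBS, a log2 ratio of -0.20 (-0.25 to -0.16). Aldh1l1 had 130.6 CPM (115.1 to 147.5) in AEVs and 101.6 CPM (86.31 to 118.8) in PBS in Gfap-high nuclei, with overlapping intervals and a log2 ratio of 0.36 (0.07 to 0.66). In Gfap-low nuclei Aldh1l1 had 113.0 CPM in AEVs and 112.1 CPM in PBS, a log2 ratio of 0.01 (-0.24 to 0.27). Both genes stayed within 1.5-fold in both classes.

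The directions were followed across 6 astrocyte-like sub-clusters with at least 20 nuclei in each library, since the mix of sub-clusters could differ between libraries. Aqp4 was lower in AEVs in 6 of 6, with log2 ratios between -0.92 and -0.49. Slc7a10 was lower in 6 of 6 (-1.21 to -0.44), and so was Slc1a2 (-0.39 to -0.07). Gjb6 was higher in 6 of 6 (0.37 to 1.46), as were Slc1a3 (0.08 to 0.92) and Glul (0.13 to 0.56). Gja1 and Slc4a4 were each higher in 1 and lower in 5, and Aldh1l1 was higher in 3 and lower in 3. The intervals of Slc1a3 in sub-clusters 0 and 5, of Glul in sub-cluster 4, of Gjb6 in sub-cluster 0 and of Slc1a2 in sub-cluster 3 hold 0. Sub-cluster 2, left out, had 0 nuclei in AEVs and 5 in PBS. The 6 sub-clusters come from the same libraries and are not replicates of a condition.

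The sub-clusters differed in depth and in the size of the ratios. Sub-cluster 0 had the highest pooled Gfap level, 6197 CPM, and the lowest median depth, 928 UMIs in AEVs and 865 in PBS. Its nuclei held 4166 CPM of the 10 oligodendrocyte markers in AEVs and 4776 CPM in PBS, whose part in the values was not tested. There Aqp4 had 2317 CPM in AEVs and 3919 CPM in PBS, and Slc7a10 had 123 CPM in AEVs and 284 CPM in PBS, with a log2 ratio of -1.21 (-1.88 to -0.56) from 32 and 59 UMIs. Gjb6 in the same nuclei had 272.8 CPM in AEVs and 211.8 CPM in PBS, a log2 ratio of 0.37 (-0.20 to 0.94), and so did not differ beyond counting error. The Gjb6 ratio was greatest in sub-cluster 3, with 215.5 CPM in AEVs and 78.16 CPM in PBS, a log2 ratio of 1.46 (1.03 to 1.91). Slc7a10 had its lowest level of the 6 sub-clusters there, 32.65 CPM in AEVs and 58.96 CPM in PBS. Slc1a3 differed most in the Gfap-low sub-cluster 1, with 701.6 CPM in AEVs and 371.4 CPM in PBS, a log2 ratio of 0.92 (0.71 to 1.13), and its ratio in sub-cluster 5 was 0.08 (-0.09 to 0.25). DESeq2 size factors would shift ratios by -0.13 in sub-cluster 1 and by -0.08 in sub-cluster 5, which brings Slc1a3 in sub-cluster 5 to equal levels. Glul was closest to equal in sub-cluster 4, with 700.7 CPM in AEVs and 639.3 CPM in PBS, a log2 ratio of 0.13 (-0.07 to 0.33).

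Gfap-high nuclei were then set against Gfap-low nuclei within each library. Among 11833 genes, 8.82% were higher and 6.96% lower by 1.5-fold in both libraries, and of the 9 genes 1, Aqp4, was higher and 2, Slc7a10 and Gjb6, were lower. Aqp4 had 1935 CPM in Gfap-high and 1055 CPM in Gfap-low nuclei of AEVs, and 2889 CPM and 1834 CPM in those of PBS. The log2 ratios of Gfap-high over Gfap-low were 0.87 (0.80 to 0.95) in AEVs and 0.66 (0.59 to 0.72) in PBS, and TMM scaling, which shifts the PBS ratios by -0.10, leaves Aqp4 within 1.5-fold there. The log2 ratios of Slc7a10 were -1.76 (-1.95 to -1.57) in AEVs and -1.53 (-1.69 to -1.38) in PBS, the lowest of the 9 genes in both libraries. Those of Gjb6 were -0.76 (-0.90 to -0.62) in AEVs and -1.26 (-1.46 to -1.05) in PBS. Slc1a2, Glul, Gja1 and Slc4a4 were lower in Gfap-high nuclei of both libraries within 1.5-fold, from -0.11 for Gja1 in AEVs to -0.54 for Glul in PBS. Slc1a3 had 0.12 (0.01 to 0.23) in AEVs and -0.02 (-0.16 to 0.12) in PBS, and Aldh1l1 had 0.21 (-0.05 to 0.46) in AEVs and -0.14 (-0.44 to 0.15) in PBS. The median mitochondrial share of a nucleus, a sign of nuclear purity, was 0.980% in Gfap-high and 0.384% in Gfap-low nuclei of AEVs and 1.38% and 0.515% in those of PBS, and its part in these ratios was not tested.

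**Figure D1:**
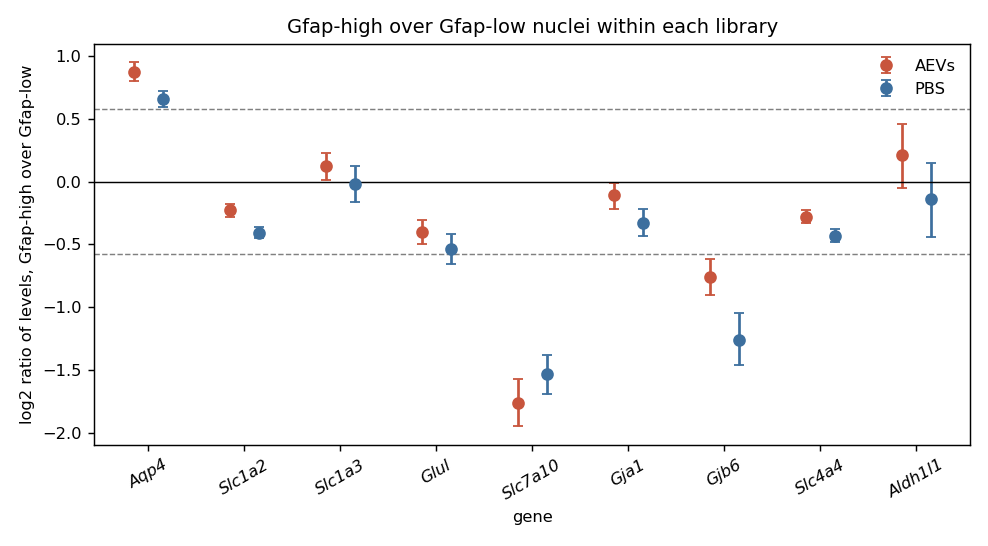
Log2 ratio of Gfap-high over Gfap-low astrocyte-like nuclei for each of the 9 genes within the AEVs and the PBS library, with 95% intervals for counting error only. Aqp4 lies above 0 in both libraries (0.87 and 0.66), and Slc7a10 lies lowest in both (-1.76 and -1.53).

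Outside the astrocyte-like nuclei the 9 genes differed in how far they were shared. Astrocyte-like nuclei held 88.0% of all Aqp4 UMIs in AEVs and 79.0% in PBS, 84.4% and 77.8% of Slc7a10, 81.1% and 69.7% of Gja1 and 80.1% and 65.5% of Gjb6. They held 76.8% of Slc1a2 UMIs in AEVs and 69.8% in PBS, and 75.0% and 65.5% of Slc4a4. Glul stood at the other end, with 14.9% of its UMIs in astrocyte-like nuclei of AEVs and 11.8% of PBS, and 57.8% and 53.8% in oligodendrocyte-like nuclei, which are known to make glutamine synthetase. Slc1a3 had 43.8% of its UMIs in astrocyte-like nuclei of AEVs and 28.9% of PBS, and Aldh1l1 had 52.0% and 55.8%. These shares also depend on how many nuclei of each class a library held.

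By CPM, Gfap-high nuclei ranked first for Aqp4 in both libraries and Gfap-low nuclei second, ahead of endothelial-like nuclei with 149.5 CPM in AEVs and 214.7 CPM in PBS. For Glul, oligodendrocyte-like nuclei had the highest level, 1143 CPM (1124 to 1162) in AEVs and 1015 CPM in PBS. In AEVs an unnamed cluster led by Crh, Nefm and Nefh came second at 1048 CPM (942.4 to 1162), with an overlapping interval, ahead of Gfap-low nuclei. In PBS Gfap-low nuclei came second. For Slc1a3 in AEVs, Gfap-high nuclei (641.7 CPM) and Gfap-low nuclei (591.4 CPM) had overlapping intervals and stood above fibroblast-like nuclei (453.8 CPM) and microglia-like nuclei (360.5 CPM). In PBS, fibroblast-like nuclei (521.2 CPM) stood above Gfap-low (445.5 CPM) and Gfap-high nuclei (440.0 CPM), whose intervals overlap. Slc1a2 ranked below astrocyte-like nuclei with 448.4 CPM in AEVs and 426.0 CPM in PBS in endothelial-like nuclei and 303.5 CPM in AEVs and 255.6 CPM in PBS in oligodendrocyte precursor-like nuclei. For Slc4a4 and Gja1 the next class was ependymal-like, with 557.2 CPM in AEVs and 528.2 CPM in PBS for Slc4a4 and 179.4 CPM in AEVs and 192.5 CPM in PBS for Gja1. For Gjb6 it was fibroblast-like, with 117.8 CPM in AEVs and 111.7 CPM in PBS.

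**Figure D2:**
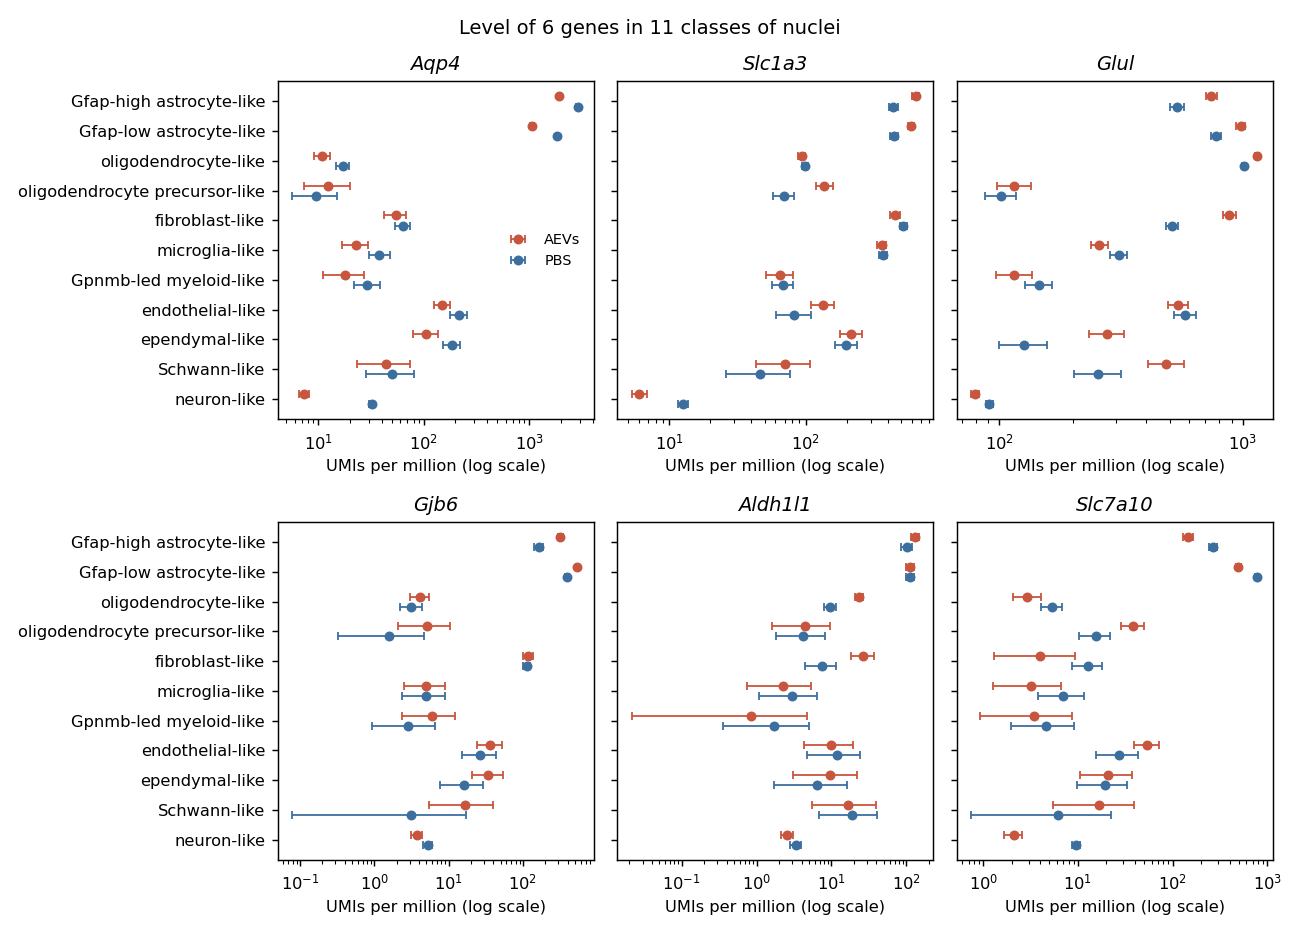
Level of each gene (CPM, log axis) in the named classes of nuclei of the AEVs and PBS libraries, with 95% Poisson intervals for counting error only. Aqp4 is at 1935 CPM in AEVs and 2889 CPM in PBS in Gfap-high nuclei, while Glul is highest in oligodendrocyte-like nuclei at 1143 CPM in AEVs and 1015 CPM in PBS.

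Free RNA in droplets gives all classes a low level of transcripts in the proportions of its source. Each gene was therefore read relative to Aqp4 within a class and set against the astrocyte-like ratio. That ratio is a baseline only for genes whose UMIs lie mostly in astrocyte-like nuclei. Over all nuclei the relative value was 5.89 in AEVs and 6.72 in PBS for Glul. It was 2.01 and 2.73 for Slc1a3 and 1.69 and 1.42 for Aldh1l1, and between 1.01 and 1.21 for the other genes. In microglia-like nuclei this relative value was 0.862 in AEVs and 0.704 in PBS for Slc1a2, 0.812 and 1.12 for Gja1, 0.741 and 0.978 for Gjb6 and 0.618 and 0.711 for Slc7a10. It was 0.624 in AEVs and 0.487 in PBS for Slc4a4 and 1.21 and 1.62 for Aldh1l1, from 5 and 6 UMIs. For Glul it was 19.2 in AEVs and 26.8 in PBS and for Slc1a3 38.0 in AEVs and 49.2 in PBS, and thinned microglia-like nuclei with a Slc1a3 UMI made up 28.2% in AEVs and 26.7% in PBS. In oligodendrocyte-like nuclei the value was 179 in AEVs and 197 in PBS for Glul and 26.3 in AEVs and 11.9 in PBS for Aldh1l1. In fibroblast-like nuclei it was 7.33 in AEVs and 13.3 in PBS for Gjb6 and 5.09 in AEVs and 6.27 in PBS for Gja1. Endothelial-like nuclei had 1.35 in AEVs and 1.08 in PBS for Slc1a2, 0.814 and 0.941 for Gjb6 and 1.12 and 0.801 for Slc4a4. They had 1.53 and 1.37 for Gja1, 1.58 and 0.489 for Slc7a10, 2.15 and 1.94 for Slc1a3 and 6.13 and 8.91 for Glul. Thinned endothelial-like nuclei with an Aqp4 UMI made up 9.05% in AEVs and 8.24% in PBS.

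Outside astrocyte-like nuclei, Glul had 880.6 CPM in AEVs and 513.4 CPM in PBS in fibroblast-like nuclei, a log2 ratio of 0.78 (0.66 to 0.90), and 276.7 CPM in AEVs and 125.7 CPM in PBS in ependymal-like nuclei, a ratio of 1.14 (0.73 to 1.55). Among all genes, 14.4% were higher by 1.5-fold in fibroblast-like and 15.1% in ependymal-like nuclei. Glul in oligodendrocyte-like nuclei had a log2 ratio of 0.17. TMM scaling factors would shift all ratios by -0.11 in fibroblast-like and -0.13 in oligodendrocyte-like nuclei, and turn no direction given here. Slc1a3 had 137.1 CPM in AEVs and 68.8 CPM in PBS in oligodendrocyte precursor-like nuclei, a log2 ratio of 1.00 (0.66 to 1.33), where 12.8% of genes were higher by 1.5-fold. Aldh1l1 in oligodendrocyte-like nuclei had 23.5 CPM in AEVs and 9.70 CPM in PBS, from 291 and 117 UMIs, a log2 ratio of 1.28 (0.96 to 1.60), where 16.9% of genes were higher. Slc7a10, lower in astrocyte-like nuclei, had 38.1 CPM in AEVs and 15.3 CPM in PBS in precursor-like nuclei, a log2 ratio of 1.31 (0.63 to 2.02) from 52 and 29 UMIs, and a ratio of 1.00 (0.14 to 1.92) in endothelial-like nuclei, where 14.0% of genes were higher. Aqp4 was lower in AEVs in ependymal-like nuclei too, with 104.9 CPM in AEVs and 184.5 CPM in PBS. The log2 ratio was -0.81 (-1.30 to -0.34) from 55 and 116 UMIs, where 12.1% of genes were lower. Aqp4 also stood at -0.75 in microglia-like, -0.70 in Gpnmb-led and -0.65 in oligodendrocyte-like nuclei, where 8.38%, 9.93% and 6.84% of genes were lower. The Gpnmb-led interval (-1.51 to 0.06) holds 0, and precursor-like nuclei had 0.39 (-0.66 to 1.43). How much of the Aqp4 in these classes is free RNA was not tested.

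In neuron-like nuclei all 9 genes were lower in AEVs, 6 of them by more than 1.5-fold, against 7.61% of 19385 genes. Their levels there were low: Aqp4 had 7.34 CPM in AEVs and 32.1 CPM in PBS, a log2 ratio of -2.13. The 1% of neuron-like nuclei with the most Aqp4 UMIs held 32.7% of those UMIs in AEVs and 58.6% in PBS, and the highest nucleus held 11 in AEVs and 92 in PBS. For Slc7a10, with a log2 ratio of -2.20, the highest 1% of nuclei held 69.0% of the UMIs in AEVs and 64.5% in PBS. In AEVs only 251 of 4499 nuclei held an Aqp4 UMI and 72 a Slc7a10 UMI, from 306 and 87 UMIs. In PBS 403 of 3398 nuclei held an Aqp4 UMI and 166 a Slc7a10 UMI, from 1436 and 428 UMIs. With so few UMIs per nucleus in AEVs, a high share in the top 1% there does not show concentration. Relative to Aqp4, Slc7a10 stood at 1.26 in AEVs and 1.17 in PBS of the astrocyte-like ratio, Gja1 at 1.20 and 1.21, Gjb6 at 1.71 and 1.23 and Slc1a3 at 1.96 and 1.99. Slc1a2 stood at 3.37 in AEVs and 1.83 in PBS and Slc4a4 at 4.39 and 2.31. Aldh1l1 stood at 4.23 in AEVs and 2.18 in PBS and Glul at 18.3 and 9.35. Of all these intervals, only those of Slc7a10 (0.978 to 1.60) and Gja1 (0.997 to 1.44) in AEVs hold 1. Over all nuclei the value was 2.01 in AEVs and 2.73 in PBS for Slc1a3 and 5.89 and 6.72 for Glul. Thinned neuron-like nuclei with an Aqp4 UMI made up 1.01% in AEVs and 1.77% in PBS, against 1.65% and 2.92% of Gpnmb-led nuclei. For Slc1a2 the thinned shares were 5.99% in AEVs and 7.79% in PBS, against 2.76% and 4.25%, and for Slc4a4 4.70% in AEVs and 6.83% in PBS, against 2.39% and 2.66%. How much of these levels is free RNA, RNA of other nuclei in the same droplet or expression was not tested.

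Lists of genes with related roles were counted by the same fold, and their members named by a rule (the highest and the lowest ratios). Beside each count stand the shares of all genes given above, 9.99% higher and 9.21% lower in Gfap-high and 12.1% higher and 5.88% lower in Gfap-low nuclei, and with lists of 8 to 12 genes a count of 1 is near them. Of 10 genes for amino acid handling, 1 was higher and 0 lower in Gfap-high nuclei and 0 higher and 1 lower in Gfap-low nuclei, with median log2 ratios of 0.12 and -0.01. Slc7a11, the cystine carrier, had a log2 ratio of 0.60 in Gfap-high nuclei from 140 UMIs in AEVs and 72 in PBS, and Slc6a9, a glycine transporter, had 245.2 CPM in AEVs and 382.7 CPM in PBS in Gfap-low nuclei, a ratio of -0.64. Of 10 genes for ion handling, 0 passed the fold in Gfap-high nuclei (median -0.10) and 1 was higher and 1 lower in Gfap-low nuclei (median -0.03). The lower gene was Kcnj10, the potassium channel Kir4.1 that shares endfeet with Aqp4, with 336.8 CPM in AEVs and 536.2 CPM in PBS, a log2 ratio of -0.67. In Gfap-high nuclei Kcnj10 was within 1.5-fold, with 310.7 CPM in AEVs and 388.2 CPM in PBS, a log2 ratio of -0.32. The gene that was higher in Gfap-low nuclei is not named here.

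Against the same 9.99% and 9.21% of all genes in Gfap-high and 12.1% and 5.88% in Gfap-low nuclei, of 8 genes for endfoot anchoring and volume regulation, 1 was higher and 0 lower in Gfap-high nuclei (median 0.03) and 1 higher and 1 lower in Gfap-low nuclei (median -0.10). The higher gene in both was Lrrc8a, a subunit of the volume-regulated anion channel, with 195.9 CPM in AEVs and 97.05 CPM in PBS in Gfap-high nuclei, a log2 ratio of 1.01, and 151.0 CPM in AEVs and 88.09 CPM in PBS in Gfap-low nuclei, a ratio of 0.78. Sntb1, a syntrophin of the complex that anchors membrane proteins, was the lower gene in Gfap-low nuclei, at -0.61. Of 10 genes for metabolite and lipid supply, 1 was higher and 1 lower in Gfap-high nuclei (median 0.05) and 0 passed in Gfap-low nuclei (median 0.05). They were Slco1c1, a thyroid hormone carrier, at 0.93, and Fabp7, a fatty acid binding protein, at -0.69.

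Among connexin partners in Gfap-high nuclei, Tjp1, the junction scaffold that binds connexins, was lower, with 239.9 CPM in AEVs and 395.3 CPM in PBS, a log2 ratio of -0.72 (-0.90 to -0.55) from 474 and 611 UMIs. Gjb2, connexin 26, had a log2 ratio of 0.78 there from only 46 UMIs in AEVs and 21 in PBS, with an interval of 0.00 to 1.60. Gjc3, a connexin gene of oligodendrocytes, had 43.33 CPM in AEVs and 80.51 CPM in PBS in Gfap-low nuclei, a log2 ratio of -0.89. The 10 oligodendrocyte markers, none at 0, summed to 2189 CPM in AEVs and 3223 CPM in PBS in Gfap-high nuclei and to 2276 CPM in AEVs and 2894 CPM in PBS in Gfap-low nuclei. These marker sums were lower in AEVs as well, and their part in the value of Gjc3 was not tested.

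Of 12 reactive astrocyte genes, 1 was higher and 2 lower in Gfap-high nuclei (median -0.12), against 9.99% and 9.21% of all genes. Of 11 counted in Gfap-low nuclei 2 were higher and 0 lower (median 0.37), against 12.1% and 5.88% of all genes. Lcn2 had 1026 CPM in AEVs and 590.7 CPM in PBS in Gfap-high nuclei, a log2 ratio of 0.80, while the complement gene C3 had 533.4 CPM in AEVs and 1009 CPM in PBS, a ratio of -0.92, and Steap4 stood at -1.30. In Gfap-low nuclei Vim, the vimentin gene, had 606.1 CPM in AEVs and 279.0 CPM in PBS, a log2 ratio of 1.12, and Timp1 stood at 0.97. Gfap itself, the basis of the split, had 3267 CPM in AEVs and 3608 CPM in PBS in Gfap-high nuclei and 1019 CPM in AEVs and 1304 CPM in PBS in Gfap-low nuclei.

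Marker sums of the other cell types did not all differ in the same direction between the libraries. The Gpnmb-led myeloid markers summed to 1460 CPM in AEVs and 1165 CPM in PBS in Gfap-high nuclei, the fibroblast markers to 326.4 CPM in AEVs and 581.7 CPM in PBS and the neuron markers to 410.4 CPM in AEVs and 410.2 CPM in PBS. Despite the near-equal neuron sums, 2 of the 9 counted neuron markers were higher and 7 lower in AEVs. The erythroid markers summed to 150.8 CPM in AEVs and 41.41 CPM in PBS there, from 298 and 64 UMIs, with 4 of 4 counted markers higher, and the oligodendrocyte precursor markers to 1628 CPM in AEVs and 2035 CPM in PBS. In Gfap-low nuclei the erythroid markers summed to 153.6 CPM in AEVs and 114.2 CPM in PBS and the neuron markers to 754.0 CPM in AEVs and 505.8 CPM in PBS. The 11 astrocyte markers used for naming summed to 9467 CPM in AEVs and 9084 CPM in PBS in Gfap-high nuclei and to 11200 CPM in AEVs and 11400 CPM in PBS in Gfap-low nuclei. The part of these sums in the levels of the 9 genes was not tested.

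The pattern over classes of each gene was compared with that of 17478 genes by Pearson's r of log2(CPM + 1) over 30 points, 15 classes in each of 2 libraries, which share libraries and depth. The closest to Aqp4 were Gfap (0.962), Ntsr2 (0.952) and Acsbg1 (0.934), and to Slc1a2 they were Fgfr3 (0.947), Atp1b2 and Slc6a11 (0.937 each). Slc7a10 was closest to Ntsr2 (0.955), Fgfr3 (0.942) and Tlcd1 (0.935), and Slc4a4 to Bmpr1b (0.935), Ntsr2 (0.915) and Mlc1 (0.911). Gja1 was closest to A2m and Slc41a1 (0.937 each) and Agt (0.924), and Gjb6 to Slc41a1 (0.917), Agt (0.895) and A2m (0.888). Aldh1l1 was closest to Gm49708 (0.895), Lrig1 (0.894) and Lcat (0.888). The values were lower for Slc1a3, with Bambi (0.824), Zfyve21 and Nfia (0.815 each), and for Glul, with Olfml1 (0.845), Daam2 (0.843) and Car14 (0.836). Among pairs of the 9 genes, Gja1 and Gjb6 had the highest r, 0.947, and Slc1a2 and Glul the lowest, 0.397. Several of the named genes were used to name astrocyte-like clusters, and these values are descriptions.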

How the data were processed

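UMI counts per gene and nucleus were used as deposited by the authors. Per the submitters' processing notes the build was mm10 and Seurat was used; no aligner, counter or setting is given in the sources used here. The deposited counts held no barcode under 500 UMIs. Nuclei with at least 300 genes, at least 500 UMIs and under 5% mitochondrial UMIs were kept, and called doublets (Scrublet in scanpy 1.11.5, 1400 or 8.26% in AEVs, 771 or 5.21% in PBS) were left out. The mitochondrial limit fell unequally on the libraries, with 103 barcodes at or over it in AEVs and 527 in PBS. Counts were scaled to 10000 per nucleus and log-transformed. Clustering used 2000 variable genes per library without the 9 genes, 30 principal components, 20 neighbours and Leiden resolution 1, giving 28 clusters. A cluster was named when at least 3 markers were raised and its leading 10 genes held a marker of the class; this last condition was set after leading genes were seen. In all, 4 clusters stayed unnamed. Astrocyte-like clusters were clustered again at resolution 0.5 on 20 components.

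UMIs were summed per class and library. The 95% intervals are exact: Poisson for levels, conditional binomial for the ratio of a gene between libraries, and Clopper-Pearson for shares. A gene counted as higher or lower past 1.5-fold (0.58 on the log2 scale) where the libraries together held 20 UMIs or more. The steps were tested on simulated Poisson counts, which held counting error only and no variation between libraries or mice. There, 90.0% of 200 genes changed 2-fold were recovered in Gfap-high nuclei, 92.5% in Gfap-low and 91.0% in all astrocyte-like nuclei. In the same order, 9.13%, 8.01% and 5.96% of unchanged genes also passed 1.5-fold. How the steps fare with variation between libraries was not tested. Alternatives used edgeR 4.0.16 and DESeq2 1.42.0 for scaling factors only. Of list genes, the 2 highest and 2 lowest ratios per class could be named, and for each of the 9 genes the 3 genes of closest pattern. The genes and lists were chosen with earlier results of these data known. The counts for the lists of connexin partners and folate enzymes are not reported here.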

Additional observations from a re-analysis of the deposited data

Results flagged for a closer look

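Slc7a10 went the other way in 2 classes outside astrocyte-like nuclei. Its log2 ratio of AEVs over PBS was 1.31 (0.63 to 2.02) in oligodendrocyte precursor-like nuclei, with 38.1 CPM in AEVs and 15.3 CPM in PBS from 52 and 29 UMIs, and 1.00 (0.14 to 1.92) in endothelial-like nuclei, with 53.6 CPM in AEVs and 26.8 CPM in PBS from 43 and 16 UMIs. Over all astrocyte-like nuclei the ratio was -0.79 (-0.89 to -0.70). With 1 library in each group, the difference between the classes was not tested. In endothelial-like nuclei 4 nuclei held 65.1% of the Slc7a10 UMIs in AEVs and 2 nuclei held 56.2% in PBS.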

How the results depend on the processing

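No paired analysis was possible because each group is 1 library and no test was run. The 9 genes were recounted under 15 alternatives, of which leaving out the shallowest sub-cluster was chosen after seeing the data. In Gfap-low nuclei the balance of genes past 1.5-fold turned round with no mitochondrial limit, from 0 higher and 2 lower to 2 higher and 0 lower. In Gfap-high nuclei, where 1 gene was higher and 1 lower, 2 were higher with doublets kept and 0 with thinning to 1000 UMIs (shallower nuclei left out), and 2 were lower with the stricter filter (at least 1000 UMIs, under 1% mitochondrial), with Leiden resolution 0.5 or 2, with the Gfap split at the widest gap, with a mean over nuclei and with thinning. In Gfap-low nuclei, where 0 were higher and 2 lower, 1 was higher with the stricter filter, the widest gap, a split of each nucleus by its own Gfap and a mean over nuclei, and 2 with no mitochondrial limit; 1 was lower with the stricter filter and with thinning and 0 with no mitochondrial limit. Over all astrocyte-like nuclei, 1 was higher with the same mix of sub-clusters (0 as reported) and 1 lower with no mitochondrial limit (2 as reported). For Gfap-high over Gfap-low, 0 were higher in both libraries with no mitochondrial limit, with resolution 0.5, with the 9 genes used for clustering, with TMM factors and without the shallowest sub-cluster (1 as reported), and against 2 lower as reported, 1 was lower with the stricter filter, the widest gap and the split by nucleus, 4 with no mitochondrial limit and 5 with the 9 genes used for clustering. The causes were not tested.

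Aqp4, Slc1a2, Slc1a3, Glul, Slc7a10 and Gjb6 kept their direction of AEVs over PBS in both classes under all 15 alternatives. The Gfap-high ratio ranged from -0.78 to -0.54 for Aqp4 and from -0.95 to -0.32 for Slc7a10, and from 0.54 to 1.25 for Gjb6, 0.23 to 0.58 for Slc1a3 and 0.28 to 0.75 for Glul. Gja1 ranged from -0.23 to 0.05 in Gfap-high and from -0.34 to 0.06 in Gfap-low nuclei. Aldh1l1 kept its direction in Gfap-low nuclei under only 11 of 15 alternatives. Aldh1l1, at 258 UMIs in AEVs and 157 in PBS in Gfap-high nuclei, is limited most by depth.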

Other observations

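An unnamed cluster led by Crh, Nefm and Nefh, with 285 nuclei in AEVs and 603 in PBS and a median of 870 UMIs, held 1048 CPM of Glul in AEVs and 692.6 CPM in PBS, and 465.7 CPM of Slc1a2 in AEVs and 316.4 CPM in PBS.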
